A study of Mus musculus with 16 samples.

Results

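Genes that mark microglia or encode chains of the complement protein C1q were followed through mouse RNA sequencing data of the hippocampus: C1qa, C1qb, C1qc, Csf1r, Cx3cr1, P2ry12, Tmem119, Aif1, Trem2 and Tyrobp. They were chosen by gene symbol, and 10 of the 10 symbols were found among the 24972 genes listed for each library. Dorsal hippocampus was microdissected into CA1, CA3 and dentate gyrus (DG), and the pieces of one subregion from one animal were pooled into a library. All animals were ArcCreERT2::eYFPflx mice, aged 3 to 4 months, in which the activity-dependent Arc promoter drives an inducible Cre recombinase and a floxed reporter encodes eYFP, so the untrained controls carried the same alleles as the trained animals. Trained mice learned active place avoidance, in which an unmarked zone of a rotating arena delivers a mild shock, in 4 trials of 30 min. Untrained mice ran in the same arena without shock. A retention test followed 24 h after training, and tissue was taken 60 min after the test. The 16 libraries came from 3 trained and 3 untrained animals, with 3 trained and 3 untrained libraries for CA1 and 3 trained and 2 untrained libraries each for CA3 and DG.

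Microglia are the resident macrophages of brain tissue, and they survey synapses and clear debris. C1q is the recognition molecule of the classical complement pathway; its A, B and C chains assemble into one protein, which in the developing brain tags synapses for removal by microglia. CSF1R keeps microglia alive, CX3CR1 receives the neuronal chemokine fractalkine, P2RY12 senses nucleotides, and TREM2 signals through the adaptor DAP12, the product of Tyrobp.

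Each value below is a normalized count, an estimated read count that the authors had scaled between libraries, and the values of a library summed to 7.61e+06 to 7.98e+06. The number of reads behind a value is unknown. Differences are on the scale of log2(value + 2), with 95% confidence intervals, and were tested with limma across all genes that passed a filter on low values; a gene was called at a Benjamini-Hochberg adjusted p under 0.05. All 10 members passed the filter in every comparison. Counts at an unadjusted p under 0.05 are given without the share of all genes at that threshold, so they have no background beside them. In bulk tissue, fewer cells of a type and less RNA per cell cannot be told apart.

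The subregion labels were checked first, because every comparison rests on them. The DG markers were as high in libraries labelled CA1 and CA3 as in those labelled DG: Prox1, a transcription factor of granule cells, stood at 3052 to 3861 in CA1, 2690 to 4786 in CA3 and 3292 to 4183 in DG. None of the 7 DG markers tested was called between any pair of subregions, with 1 of 7 at an unadjusted p under 0.05 between CA1 and DG and 0 of 7 in the comparisons with CA3. CA1 markers did separate, with 6 of 7 called higher in CA1 than in CA3 and 2 of 7 than in DG. Of all genes, 0.988% were called between CA1 and CA3, 4.05% between CA1 and DG and 0.00682% between CA3 and DG. With training in CA1, 5.23% were called. Of the 7 CA3 markers, 2 were called higher in CA3 than in CA1 and 3 (Cpne4, Bok and Grik4) higher in DG than in CA1, but 0 were called between CA3 and DG (0 at an unadjusted p under 0.05, median 0.05), and in trained against untrained CA1 4 were called higher and 1 lower. Within CA1, however, Fibcd1 was at 921 to 1417 in the untrained libraries and fell to 409 to 504 in the trained libraries (log2 difference -1.32, adjusted p = 0.0139, limma; 0.0784 without trained replicate 3, and also not called with all 16 libraries in 1 fit), where the trained libraries overlapped CA3 and DG.

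**Figure D1:**
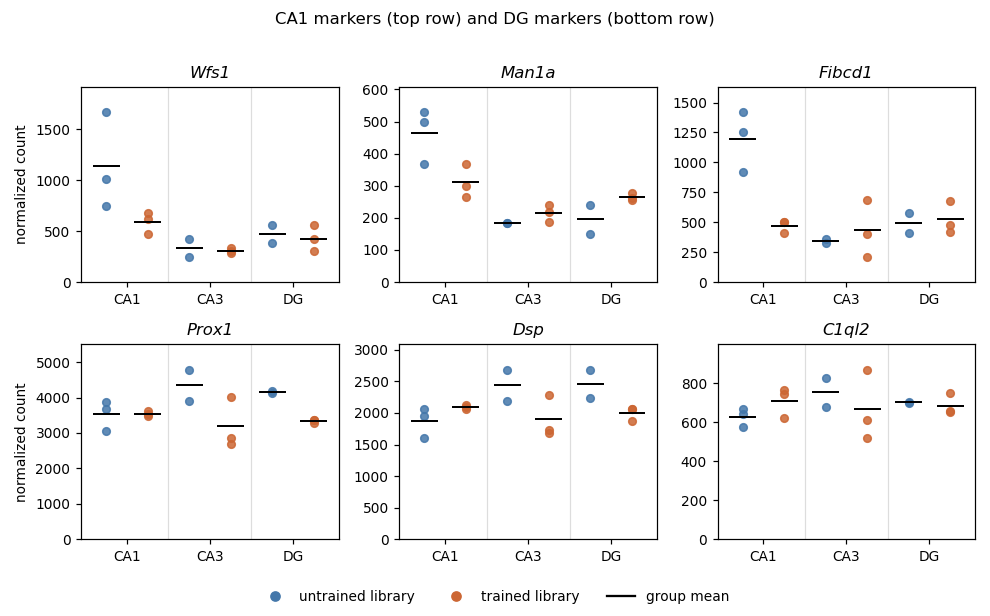
Normalized counts of 3 CA1 markers (top) and 3 DG markers (bottom) in each of the 16 libraries, by subregion on the horizontal axis; points are libraries (untrained blue, trained orange) and black bars are group means. Prox1, Dsp and C1ql2 lie at similar heights in CA1, CA3 and DG, and Wfs1, Man1a and Fibcd1 are highest on average in untrained CA1.

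The libraries also differed in other respects. The number of genes listed at 0 was 7567 to 9759 in 7 libraries (the 3 of trained CA1, the 2 of untrained DG and replicates 1 and 2 of trained CA3) and 3124 to 5944 in the other 9. Xist, the X-inactivation RNA, stood at 7601 to 19592 in all 9 trained libraries and in untrained CA3 replicate 1, and at 25.5 to 52.4 in the other 6, although the study described both sexes in both groups. Untrained CA3 replicate 1 (Xist at 10587) went against the CA1 and DG libraries titled with the same untrained animal number (26.1 and 25.5). The Y-linked Ddx3y was at 448 to 553 in the 6 libraries with low Xist, at 201 in untrained CA3 replicate 1, at 255 in trained DG replicate 3 and at 1.66 to 101 in the remaining libraries. The animal blocks used below rest on these titles. Sex-linked transcripts and training can therefore barely be told apart in these libraries.

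Microglial RNA was present in every library. Per kb of the longest coding transcript, the mean levels over 16 libraries were 179 for C1qb, 170 for C1qa, 150 for Csf1r, 121 for C1qc, 106 for P2ry12, 78.1 for Tyrobp, 75.3 for Cx3cr1, 53.4 for Tmem119, 51.9 for Trem2 and 20.9 for Aif1. The ranges of neighbours in this order overlapped throughout, except for Trem2 (31.7 to 67.5) and Aif1 (14.3 to 27.3). Transcript length was taken from GENCODE M21, and the transcript used by each cell is unknown. The 10 members together made up 0.0238 to 0.0305% of a library. The most even member was P2ry12, with a coefficient of variation of 7.84% over the 16 libraries, and the least even were Trem2 (25.9%), Aif1 (22.4%) and Tyrobp (20.7%).

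The genes of the C1q chains lie side by side on the minus strand of chromosome 4 in GRCm38: C1qb at chr4:136880129-136886187, C1qc at chr4:136889804-136893065 and C1qa at chr4:136895917-136898803, which places C1qc 3616 bases from C1qb and 2851 bases from C1qa. Trem2 lies at chr17:48346401-48354147 on the plus strand, and Aif1 is on the same chromosome at chr17:35170991-35176068. Cx3cr1 lies on chromosome 9, P2ry12 on 3, Tmem119 on 5, Tyrobp on 7 and Csf1r on 18. Exons of Csf1r share 873 bases with those of Hmgxb3 on the opposite strand (mean value 431), so reads of the pair can be mixed if strand was not used in counting, which the sources used here do not give. Cx3cr1 shares 78 exonic bases with the antisense gene Gm33858, and P2ry12 shares 9 with Med12l, also on the opposite strand.

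The stretches just upstream of C1qb, C1qc and Trem2 are shown because C1qc and Trem2 are the members with a called difference below and C1qb is a neighbour of C1qc that has none. The sequences are from RefSeq (GRCm38.p6), read 5′ to 3′ on the strand of the gene, and lie wholly upstream of the gene in both RefSeq and GENCODE. Capitals mark GAGGAA, the core bound by the macrophage factor PU.1, on either strand (TTCCTC where it lies on the other strand).
C1qb, chr4:136886201-136886350, minus strand: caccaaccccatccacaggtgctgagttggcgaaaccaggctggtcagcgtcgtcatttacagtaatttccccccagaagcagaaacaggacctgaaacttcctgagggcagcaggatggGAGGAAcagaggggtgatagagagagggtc
C1qc, chr4:136893066-136893164, minus strand: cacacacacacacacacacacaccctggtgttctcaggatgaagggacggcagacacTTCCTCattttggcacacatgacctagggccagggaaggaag
Trem2, chr17:48346251-48346400, plus strand: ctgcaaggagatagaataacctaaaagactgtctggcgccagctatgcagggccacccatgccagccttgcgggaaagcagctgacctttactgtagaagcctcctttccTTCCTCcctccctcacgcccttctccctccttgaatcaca
Promoters were available for 6 of the 10 members, and 4 of these (Aif1, C1qb, C1qc and Trem2) held the motif within 250 bases upstream of the RefSeq start. Of all 32851 promoters in the table, 23.3% held it over the same length. A match describes the letters only and is not evidence of binding.

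The study asked how recall of the avoidance memory changes gene expression in each subregion. For the microglial and C1q genes no difference between trained and untrained mice was called. The count was 0 of 10 members in CA1, 0 of 10 in CA3, 0 of 10 in DG and 0 of 10 over all subregions together, with 1, 1, 1 and 0 members at an unadjusted p under 0.05 (limma). Of all genes tested, 5.23% were called in CA1 (3.53% higher and 1.7% lower in trained), 0.852% in CA3, 3.39% in DG and 10.3% over all subregions (6.28% higher and 4.06% lower). The median log2 difference of the 10 members over all subregions was 0.02, beside -0.01 for all genes. The fit over all subregions counted the 16 libraries as separate samples, although training was given to 3 trained and 3 untrained animals. Its intervals and p-values, here and below, therefore rest on libraries and not on animals.

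**Figure D2:**
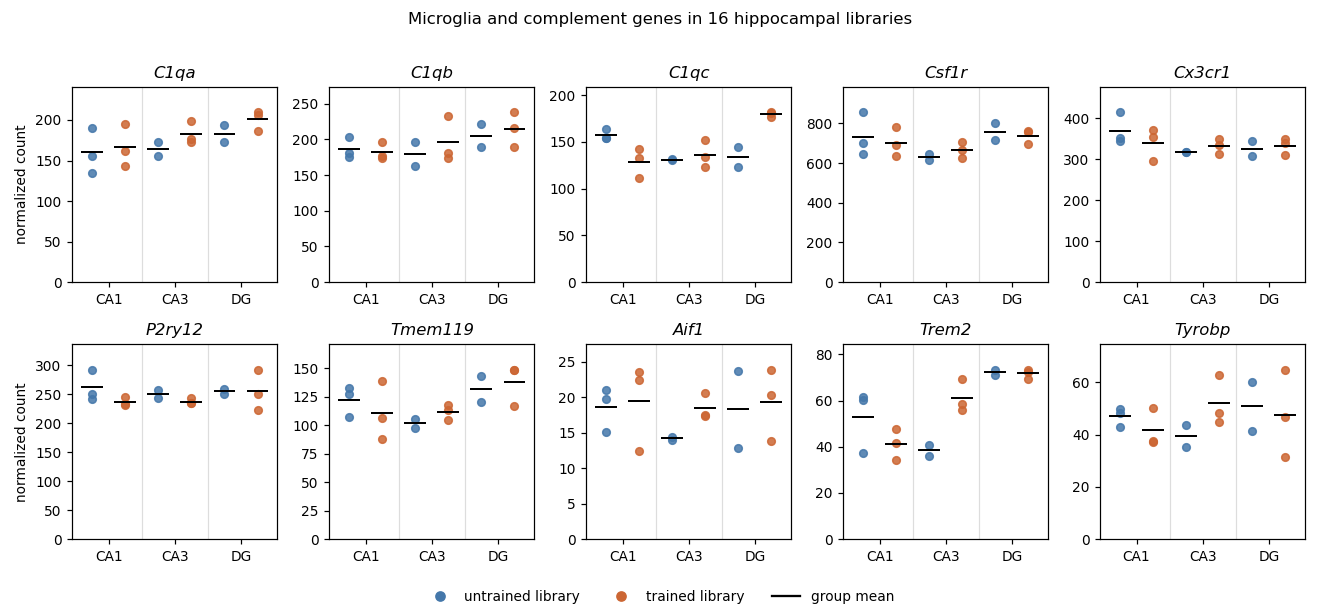
Normalized counts of the 10 members in each library, by subregion; points are libraries (untrained blue, trained orange), black bars are group means, and each vertical axis starts at 0. Trained and untrained libraries overlap in most panels, C1qc is high in the 3 trained DG libraries, and Trem2 is at 69.4 or above in all DG libraries.

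Among the C1q chains, C1qa and C1qb varied little with training. In CA1, C1qa stood at 156, 134 and 190 in the untrained libraries and at 161, 195 and 143 in the trained ones. In DG it was 173 and 194 in the untrained and 187, 209 and 206 in the trained libraries. The groups overlapped in both subregions. C1qb was 181, 175 and 204 in untrained CA1 against 197, 176 and 175 in trained CA1, and 189 and 221 in untrained DG against 216, 189 and 238 in trained DG. Over all subregions the log2 difference was 0.11 for C1qa (95% confidence interval -0.06 to 0.27) and 0.04 for C1qb (-0.11 to 0.20).

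C1qc differed with training in opposite directions in CA1 and DG, and neither difference was called. In CA1 it was 163, 154 and 154 in the untrained libraries and 133, 142 and 111 in the trained libraries, so all trained values lay below all untrained values (157 ± 5.54, SD, n = 3, against 129 ± 16, n = 3). In DG it was 123 and 145 in the untrained and 177, 181 and 181 in the trained libraries, again without overlap but in the other direction (134 ± 15.3, n = 2, against 180 ± 2.41, n = 3). In CA3 the untrained libraries were both at 131 and the trained libraries at 134, 123 and 152. The log2 difference was -0.29 in CA1 (-0.57 to -0.01, limma adjusted p = 0.250), 0.05 in CA3 (-0.23 to 0.34) and 0.42 in DG (0.13 to 0.72, limma adjusted p = 0.103). The 3 trained CA1 and 2 untrained DG libraries, the low side of both contrasts, were among the 7 libraries with the most genes listed at 0.

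The difference between these 2 training effects was itself called. It was -0.71 on the log2 scale (-1.09 to -0.33, limma adjusted p = 0.0355 in 1 fit of 6 groups), and C1qc was the only one of the 10 members called there, beside 2.75% of all genes. The call did not hold with the number of genes at 0 as a covariate, an alternative chosen after seeing the data (-0.41, adjusted p = 0.885), which left 0 of 14673 genes called in this comparison. It did not hold with the animal as a replicate block either (-0.72, adjusted p = 0.0660), nor without trained replicate 1, 2 or 3 or untrained replicate 1 or 2 (-0.78 to -0.57, adjusted p = 0.0735 to 0.208). The training effects in CA1 and CA3 differed for 0 of 10 members (1 at an unadjusted p under 0.05, beside 0.0273% of all genes called), as did those in CA3 and DG (0 of 10, 1 unadjusted, beside 0.164%). Relative to the other chains, the C1qc level per kb was 0.692 to 0.882 of the mean of C1qa and C1qb in untrained CA1 and 0.620 to 0.677 in trained CA1, and 0.602 to 0.618 in untrained DG and 0.721 to 0.805 in trained DG. This ratio has C1qc as its numerator and was formed after its values were seen, so it restates them on another scale.

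Border macrophages and monocytes also express C1q. Of the 14 markers on their list, 7 stayed under 10 in every library. The macrophage receptor Mrc1 was at 15.4 to 42.2, a range that overlaps that of the member Aif1 (12.5 to 23.9). Cd163 was at 2.48 to 18.2, the monocyte marker Ly6c2 at 0 to 3.43 and the neutrophil marker S100a8 at 0 to 1.35. The summed list, which includes the hemoglobin genes, was 152 to 234 in untrained and 47.6 to 222 in trained CA1, and 186 to 308 in untrained and 89.1 to 183 in trained DG. By gene, the 4 tested markers of the list had a median of -1.25 in trained against untrained CA1 (0 called, 1 at an unadjusted p under 0.05) and -0.08 in DG (0 called, 1 unadjusted). Other cell types moved in the same contrasts as well. Choroid plexus and leptomeningeal markers had a median of -0.76 in trained against untrained CA1, with 2 of 9 called lower (Ptgds and Dcn; beside 5.23% of all genes), and 0.13 in DG with none called. Endothelial and mural markers had a median of 0.15 in CA1 with none called and -0.36 in DG, with 2 of 12 called lower (Flt1 and Rgs5; calls lost in 0 and 7 of 13 alternatives), beside 3.39% of all genes. For the training effect in CA1 minus that in DG, the border macrophage and monocyte median was -1.28, with 0 of 5 called, 3 at an unadjusted p under 0.05 and 5 of 5 below 0, the sign of the C1qc difference. In the same contrast, the endothelial and mural median was 0.64 (0 of 12 called, 5 at an unadjusted p under 0.05), the choroid plexus and leptomeningeal median -1.07 (0 of 12 called, 3 unadjusted), the CA1 marker median -1.06 (1 of 7 called, 5 unadjusted) and the CA3 marker median 0.57 (2 of 7 called, 6 unadjusted), beside 2.75% of all genes called. The part of these cell types and subregion markers in the C1qc difference was not tested.

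Csf1r, Cx3cr1 and P2ry12 had the narrowest intervals of the members. Csf1r, the receptor tyrosine kinase on which microglia depend, was 701, 643 and 855 in untrained and 638, 689 and 782 in trained CA1, and the groups overlapped. In CA3 it was 647 and 615 in the untrained and 664, 628 and 707 in the trained libraries. In DG it was 800 and 717 against 762, 695 and 755. Over all subregions the log2 difference of Csf1r was -0.01 (-0.13 to 0.11).

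Cx3cr1, the fractalkine receptor, ranged from 295 (trained CA1) to 414 (untrained CA1), and its difference over all subregions was -0.02 (-0.14 to 0.11). P2ry12, the purinergic receptor that guides microglial processes to injury, ranged from 222 to 292, with a difference of -0.08 (-0.21 to 0.05). Tmem119, a membrane protein used as a microglial marker, ranged from 87.5 to 149, with a difference of 0.00 (-0.20 to 0.20). For the 7 members with a mean value of 100 or more, the intervals over all subregions reached from 0.864-fold to 1.21-fold, with libraries and not animals as the samples.

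The 3 members with lower values had wider intervals. Aif1, which encodes the actin-binding protein Iba1, was at 12.5 to 23.9 in all libraries, close to the filter, and its difference was 0.14 (-0.26 to 0.54). Tyrobp, which encodes DAP12, was 42.9, 49.6 and 48.4 in untrained and 50.2, 37.7 and 37.2 in trained CA1, 35.3 and 43.7 in untrained and 44.9, 48.1 and 62.9 in trained CA3, and 60.2 and 41.6 in untrained and 46.8, 31.3 and 64.8 in trained DG. Its values overlapped in CA1 and DG, and its difference over all subregions was 0.01 (-0.30 to 0.32).

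Trem2, the receptor that pairs with DAP12, was highest in DG. Its values were 37.4, 60.1 and 61.6 in untrained CA1, 47.9, 41.7 and 34.5 in trained CA1, 36.2 and 40.9 in untrained CA3, 58.4, 56.1 and 69.4 in trained CA3, 71.2 and 73.3 in untrained DG, and 69.4, 73.4 and 72.6 in trained DG. The 3 trained CA3 libraries were all above both untrained ones, whereas in CA1 and DG the groups overlapped. The training difference in CA3 was 0.64 (0.23 to 1.05), a ratio of 1.56 (1.17 to 2.07), at an unadjusted p of 0.00586 and a limma adjusted p of 0.135, and was not called. It was -0.32 in CA1 (-0.82 to 0.18) and -0.01 in DG (-0.41 to 0.39).

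In CA3, Trem2, Aif1 and Tyrobp had no overlap between trained and untrained libraries, all higher in trained, beside 33.9% of all genes without overlap in either direction with 3 against 2 libraries. C1qc was the only member without overlap in CA1 and in DG, beside 24% and 35.6% of all genes. The oligodendrocyte markers had positive differences for 10 of 10 genes in CA3 (median 0.23, 0 called, 0 at an unadjusted p under 0.05) and a median of -0.22 in DG (1 of 10 positive, 0 called, 4 at an unadjusted p under 0.05). Choroid plexus and leptomeningeal markers were lower for 10 of 10 tested genes in trained CA3 (median -0.80), and 2 were called, beside 0.852% of all genes. These were Ttr and Clic6, with calls lost in 1 of 13 and 3 of 10 alternatives. The part of these shifts in the Trem2 values was not tested.

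**Figure D3:**
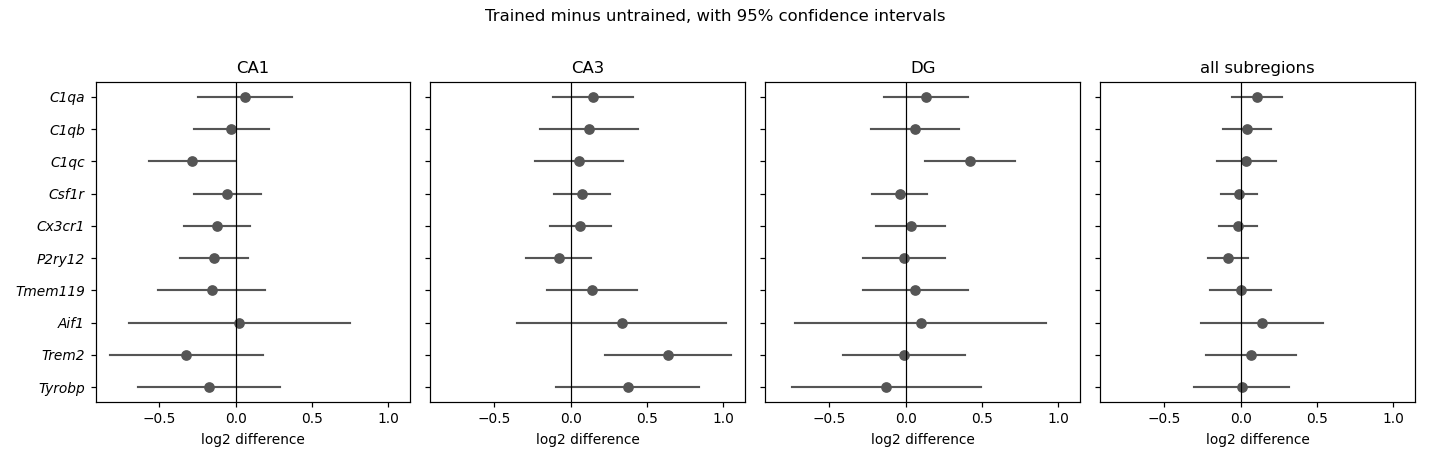
Log2 difference between trained and untrained libraries (horizontal axis; positive values are higher in trained) for the 10 members in CA1, CA3, DG and all subregions together, with 95% confidence intervals from limma. No member is called in any panel; the intervals of C1qc in CA1 and DG and of Trem2 in CA3 do not include 0.

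Between subregions, over both training groups, Trem2 was the only member called. All 6 CA1 libraries (34.5 to 61.6; 47.2 ± 11.5, SD) were below all 5 DG libraries (69.4 to 73.4; 72.0 ± 1.69). The log2 difference was -0.62 (-0.93 to -0.32), a ratio of 0.650 (0.526 to 0.802), with a limma adjusted p of 0.0180. This was 1 of 10 members, beside 4.05% of all genes called between CA1 and DG (2.14% higher and 1.91% lower in CA1), and 2.47% of all genes had no overlap between the libraries of these subregions. With the animal as a replicate block the difference was -0.65 (adjusted p = 0.0179), and it was no longer called without untrained replicate 1 (-0.52, adjusted p = 0.0722), trained replicate 2 (-0.62, 0.102) or trained replicate 3 (-0.56, 0.0810).

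The order of the Trem2 group means was untrained CA3 (38.6), trained CA1 (41.3), untrained CA1 (53.0), trained CA3 (61.3), trained DG (71.8) and untrained DG (72.2). Trained CA1 overlapped both of its neighbours in range, untrained CA1 overlapped trained CA3, and trained CA3 touched trained DG at 69.4. Thus no pair of neighbours in this order was separated by its libraries. Between CA3 and DG, the difference of Trem2 was -0.55 (-0.87 to -0.23), at an unadjusted p of 0.0016 and a limma adjusted p of 0.534.

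CA3 lay below DG for all 10 members, with a median of -0.16 beside 0.00 for all genes, and 4 of 10 (Trem2, Csf1r, Tmem119 and C1qc) had an unadjusted p under 0.05. None was called, and in this comparison only 0.00682% of all genes were. Csf1r was 615 to 707 in the 5 CA3 libraries and 695 to 800 in the 5 DG libraries, with overlap at the edge (-0.20, -0.35 to -0.06). Tmem119 was 97.3 to 118 in CA3 and 117 to 149 in DG (-0.33, -0.58 to -0.08). Between CA1 and CA3, 0 of 10 members were called or had an unadjusted p under 0.05, beside 0.988% of all genes called, and the differences ranged from -0.10 (C1qa) to 0.18 (Aif1). No member was without overlap between CA1 and CA3 or between CA3 and DG, beside 0.831% and 0.641% of all genes.

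**Figure D4:**
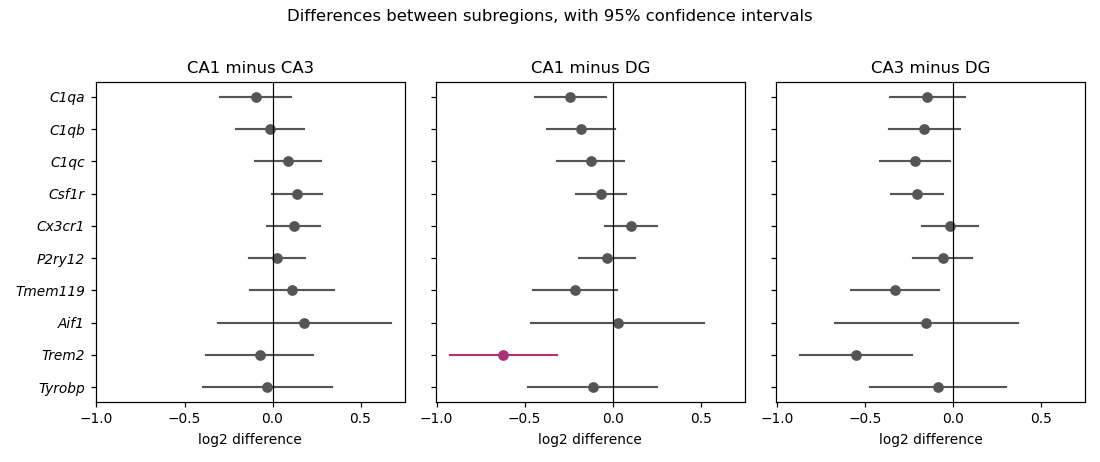
Log2 differences between subregions over both training groups for the 10 members, with 95% confidence intervals; positive values are higher in the subregion named first. Trem2 in CA1 minus DG (purple, -0.62) is the only called difference, and all 10 members lie below 0 in CA3 minus DG.

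Markers of other cell types moved with the same subregion contrast. Of the 12 endothelial and mural genes, 12 had a positive CA1 minus DG difference and 4 were called (Slco1a4, Cdh5, Flt1 and Cldn5; calls lost in 3, 5, 4 and 8 of 15 alternatives), and their summed level was 1919 to 2213 in CA1 and 1371 to 2231 in DG. Of 10 neuronal genes, 3 were called lower in CA1 (Nefl, Syn1 and Snap25; calls lost in 0, 2 and 4 of 15 alternatives). The 42 other microglia genes had a median difference of -0.05, with 13 at an unadjusted p under 0.05 and 1 called (beside 4.05% of all genes), Lgmn, a lysosomal protease (343 to 426 in CA1, 461 to 522 in DG, -0.29, limma adjusted p = 0.0153). Lgmn lost its call without untrained replicate 1 or trained replicates 2 or 3 (adjusted p = 0.0519 to 0.0892). Of 26 other complement genes 1 was called, also beside 4.05% of all genes: Cd93, which endothelial cells also make, was higher in CA1 (0.56, limma adjusted p = 0.0470) and lost that call in 9 of 15 alternatives, the animal block included (adjusted p = 0.0702). The part of the other cell types in the Trem2 difference was not tested.

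The members varied together only in part. Across the 16 libraries, the log2 values of the 45 pairs of members had a median Pearson correlation of 0.33, and 44 of 45 were above 0. The highest was 0.72 for Tmem119 and Aif1 and the lowest -0.01 for P2ry12 and Trem2; C1qa and C1qb reached 0.65. The 10 other genes with a mean value of at least 50 whose pattern was most like the mean of the members were Borcs6 (r = 0.86), Dync1li1, Rdh11, Numbl, Slc20a2, Rnf220, Rab1b, Ubac1, Pepd and Slc29a3 (r = 0.75), of 10757 genes compared. None of these 10 was on a microglia list. The libraries share animals, normalization and dissection, so these correlations are descriptions of 16 points without a test.

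Other microglia genes, on a list of 42 that were all tested, had 0 called with training in CA1 (4 at an unadjusted p under 0.05), 0 in CA3 (3 unadjusted), 1 in DG and 3 over all subregions, beside 5.23%, 0.852%, 3.39% and 10.3% of all genes. In DG, Mef2c, a transcription factor that neurons express as well, was at 1766 to 2452 and fell with training (-0.38, limma adjusted p = 0.00997). Over all subregions, Mef2c and Sall1, a transcription factor of microglial identity, fell by 0.31 and 0.27, and Mertk, a phagocytic receptor also made by astrocytes, rose by 0.25. With a sex-linked score as covariate, which left 0 of 14673 genes called, these 3 were not called and Mertk changed sign (-0.07). The Mef2c call over all subregions was also lost without untrained replicate 1, that of Sall1 without untrained replicate 1 or trained replicate 2, and that of Mertk without untrained replicate 2 or trained replicate 1 or 2. In DG the Mef2c call was lost without trained replicate 1 or 2 and with all 16 libraries in 1 fit (adjusted p = 0.0513). The activated microglia list had 1 gene called of 16 tested over all subregions, the lysosomal protease Ctsb (0.13, limma adjusted p = 0.0251; lost in 6 of 17 alternatives), and 0 in each subregion (5 of 14, 2 of 15 and 3 of 15 unadjusted in CA1, CA3 and DG).

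The other complement genes were on a list of 33. C3, the central complement protein, was at 0 to 13.5 in all libraries. C4b, which acts directly downstream of C1q, was at 248 to 398 (0.20, 0.05 to 0.35, limma adjusted p = 0.0780). In CA1, 2 of 22 tested genes were called, beside 5.23% of all genes: Susd4, a complement inhibitor, was at 1138 to 1237 in untrained and rose to 1368 to 1496 in trained libraries (0.29, limma adjusted p = 0.00787), and Sez6, a neuronal protein with complement control domains, was at 972 to 1386 in untrained and fell to 634 to 784 in trained libraries (-0.77, limma adjusted p = 0.0209). Susd4 lost its call without untrained replicate 1 or trained replicate 2, and Sez6 without untrained replicate 1 or trained replicate 1 or 3, with all 16 libraries in 1 fit (adjusted p = 0.0560) and with a replicate block (0.0824). Over all subregions, 2 of 26 were called, beside 10.3% of all genes: Clu, an astrocytic inhibitor of complement lysis, fell by 0.19, and C1ra, a protease that binds C1q, rose by 1.12 at values of 0 to 29.1. Without untrained replicate 1 the C1ra difference was 0.47 (adjusted p = 0.353) and that of Clu -0.14 (adjusted p = 0.0674), and C1ra lost its call in 11 of 16 alternatives. The Clu call was also lost with the sex-linked covariate (limma adjusted p = 0.297). The training effects in CA1 and DG differed for 2 of 26, beside 2.75% of all genes: Susd4 (0.50, limma adjusted p = 0.0120; not called without untrained replicate 1 or trained replicate 2) and the receptor Cr2, which was at 0 to 13.3 in all libraries and listed at 0 in both untrained DG libraries. The Cr2 call was lost without untrained replicate 1 (adjusted p = 0.0686) or trained replicate 2, and both calls were lost with the number of genes at 0 as a covariate.

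Among the ligands of the receptors, the neuronal CSF1R ligand Il34 was called higher in trained CA1. It was 145, 149 and 115 in untrained and 227, 223 and 216 in trained CA1. In CA3 it was 143 and 196 against 214, 236 and 267, and in DG 203 and 161 against 229, 220 and 227. In each subregion all trained libraries were above all untrained ones, beside 24%, 33.9% and 35.6% of all genes without overlap in either direction in CA1, CA3 and DG. The log2 difference was 0.70 in CA1 (0.44 to 0.97, a ratio of 1.63, limma adjusted p = 0.00206), 0.50 in CA3 (0.17 to 0.83, adjusted p = 0.141), 0.31 in DG (0.04 to 0.59, adjusted p = 0.197) and 0.52 over all subregions (0.35 to 0.70, adjusted p = 0.000563). It was called in CA1 and over all subregions; the effects in CA1 and DG differed by 0.39 (-0.01 to 0.79), which was not called. Over all subregions the call was lost only with the sex-linked covariate (0.85, adjusted p = 0.0771), and the CA1 call held in all 14 alternatives. Those 14 included neither the sex-linked covariate nor the number of genes at 0. Within CA1, Xist was at 26.1 to 52.4 in untrained and 17310 to 19318 in trained libraries. The genes at 0 numbered 3124 to 5425 in untrained and 8323 to 9759 in trained CA1. The part of these differences in the CA1 call was not tested. Exons of Il34 share 22 and 75 bases with a pair of antisense genes, so reads on the opposite strand could be counted with it.

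**Figure D5:**
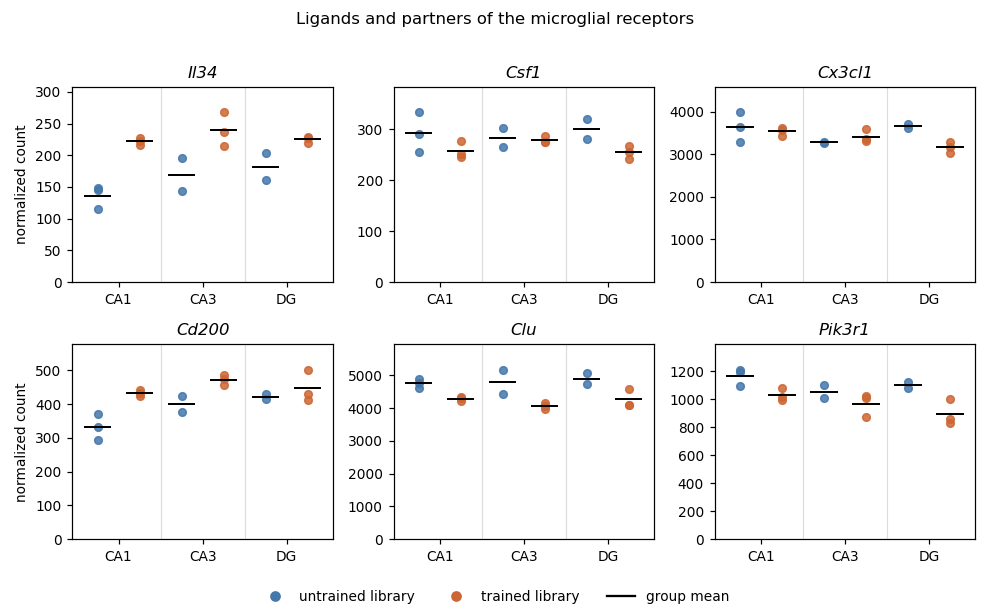
Normalized counts of 6 ligands and partners of the microglial receptors in each library, by subregion; points are libraries (untrained blue, trained orange) and black bars are group means. Il34 is higher in all trained libraries than in the untrained libraries of the same subregion, and Csf1 overlaps in CA1 and CA3.

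Csf1, the other ligand of CSF1R, was at 241 to 332 and its difference over all subregions was -0.14 (-0.28 to -0.01, limma adjusted p = 0.149). Cx3cl1, which encodes fractalkine, was at 3033 to 3982 and its difference was -0.06 (-0.15 to 0.03). Cd200, a neuronal protein that restrains microglia through its receptor, was at 294 to 372 in untrained CA1 and rose to 425 to 443 in trained CA1 (0.39, limma adjusted p = 0.0199) and over all subregions by 0.25 (adjusted p = 0.0106). The Cd200 call in CA1 was lost without untrained replicate 1 or 3 or trained replicate 1 or 2. Over all subregions it was lost without untrained replicate 1 or trained replicate 2, and with the sex-linked covariate (limma adjusted p = 0.535). Pik3r1, a kinase subunit downstream of the receptors, fell by 0.20 over all subregions. Its call was lost without untrained replicate 1 or trained replicate 2, and with the sex-linked covariate (limma adjusted p = 0.727). Of the 19 tested ligands and partners, 2 were called higher (Il34 and Cd200) and 2 lower (Clu and Pik3r1) over all subregions, beside 6.28% and 4.06% of all genes, and in CA1 2 were called higher and 0 lower, beside 3.53% and 1.7%; in CA3 and DG none was called (4 and 7 at an unadjusted p under 0.05). Of 10 neuronal genes, 5 were also called higher in trained CA1 (Snap25, Stmn2, Nefl, Rbfox3 and Syt1; calls lost in 0, 1, 4, 5 and 7 of 14 alternatives), with summed levels of 52416 to 54778 in untrained and 59186 to 60601 in trained libraries. The part of this shift in the Il34 and Cd200 values was not tested.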

How the data were processed

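RNA from 16 pooled dissections of 3 trained and 3 untrained mice was sequenced after ribosomal RNA depletion; the labels name the molecule polyA RNA. Per the labels, reads were mapped to GRCm38 with STAR, whereas the methods write both MM10, which is GRCm38, and GRCm39; per the methods, the authors estimated counts with Salmon, and the labels list DESeq2 among the tools. The deposited values are a normalized signal per gene: they are not whole numbers, total alike in every library, and whole reads could not be recovered, so no count model was fitted.

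Here log2(value + 2) was fitted with limma 3.58.1 (R 4.3.3; trend and robust estimation), on genes of at least 10 in at least 3 libraries (CA1) or 2 (other fits), with Benjamini-Hochberg adjustment over all genes tested. Training was tested within each subregion and over all 16 libraries with subregion as a term; subregions and differences between training effects were tested in 1 fit of 6 groups. An untrained library each of DG and CA3 had failed quality control in the study and was not analysed here. Pairing was checked from deviations within groups: libraries of 1 animal correlated at -0.165 to 0.121 over 14 pairs, and same-numbered trained and untrained libraries at -0.158 to 0.0639 over 7 pairs. Animals pair the subregions by design. No 2 libraries were duplicates.

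The members and gene lists were chosen with earlier results of these data known. All members were named, with, from each other list, called genes (at most 6 by adjusted p), and the 10 genes most like the mean of the members; further genes were given for their role. The fits were tested on simulated data. Alternatives were other pseudocounts, filters and scalings, no robust estimation, replicate and animal blocks, covariates, and leaving out each animal or library. Values of some marker genes are not reported here.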

Additional observations from a re-analysis of the deposited data

Results flagged for a closer look

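One result was marked because training effects differed between groups under the same contrast: C1qc, whose training difference in CA1 minus that in DG was -0.71 on the log2 scale (limma adjusted p = 0.0355; not called in 7 of 15 alternatives, among them the animal block at 0.0660 and the number of genes at 0 as a covariate at 0.885). All 3 trained CA1 libraries were below the 3 untrained ones, and all 3 trained DG libraries were above the 2 untrained ones, beside 24% of all genes without overlap in CA1 and 35.6% in DG.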

How the results depend on the processing

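Over 1450 recomputed values of the 10 members, 1439 kept their side of the threshold, 10 lost a call, 1 gained a call and 0 called values reversed; 115 uncalled values changed sign. Most of the 1439 were uncalled values that stayed uncalled. The called results lost their call more often: C1qc between the training effects of CA1 and DG in 7 of 15 alternatives, and Trem2 between CA1 and DG in 3 of 15. In DG, 1 member was called for training without untrained DG replicate 3 (C1qc, 0.54, adjusted p = 0.0297). Between the training effects of CA1 and DG, 0 members were called with the animal as a replicate block, 0 with the number of genes at 0 as a covariate (chosen after seeing the data), and leaving out each animal gave 0 to 1. Between CA1 and DG, leaving out each animal gave 0 to 1 members, and the animal block changed no call of a member there (594 genes called, 577 with the block). In the other 7 comparisons the count of members called stayed at 0 under all alternatives. Trained and untrained libraries share only a number, and a replicate block on it left 0 members called for training in CA1, CA3, DG and all subregions. Mertk over all subregions reversed to -0.065 with the sex-linked covariate (adjusted p = 0.925). Counts over all genes ranged from 329 to 1877 in CA1 (710 as reported), from 7 to 1160 in CA3 (118), from 28 to 1583 in DG (473) and from 0 to 1879 over all subregions (1517); from 0 to 2039 (404), 0 to 69 (4) and 0 to 72 (24) for the training effects of CA1 and DG, CA1 and CA3, and CA3 and DG; and from 113 to 606 (594), 52 to 207 (145) and 0 to 19 (1) for CA1 and DG, CA1 and CA3, and CA3 and DG. The cause was not tested. Without the filter on low values the median of all genes moved by -0.126 in CA1 and 0.118 in DG. The split of the genes called with training in CA1 then turned to 552 higher and 1325 lower, from 479 higher and 231 lower. The directional shares given for CA1 thus depend on the filter. With 2 untrained libraries in CA3 and DG, and Aif1, Trem2 and Tyrobp at values under 100, smaller differences of these genes could not be resolved.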
